A study of Mus musculus with 6 samples.

Results

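The mRNAs of the translation initiation factors were followed in murine oviductal epithelial (MOE) cells before and after long passage in culture. The set held the 54 genes, of 22800 symbols in the table, whose symbols begin with Eif and a digit from 1 to 6, with Eif2ak2 (PKR, an interferon-induced kinase) and Eif4a3 (a core of the exon junction complex) left out. All 6 libraries came from 1 cell line, made from the pooled oviducts of 8-week-old female CD1 mice, an outbred strain. The low-passage group, MOE LOW, was sampled at passages 8, 9 and 10. The high-passage group, MOE HIGH, was the same line carried on without a break to passages 90, 103 and 113, with no transgene and no drug in either group and the same serum-, insulin-, EGF- and estradiol-containing medium in both. The comparison asked which transcripts changed over prolonged passage, after which the cells had become transformed without genetic manipulation. Each passage gave 1 library of total RNA depleted of ribosomal RNA, so the p-values below measure the spread between passages of a single line and not between independent lines or animals.

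Levels are in FPKM (fragments normalized to transcript length and to the mapped fragments of the library). The unit divides by length so that levels of different genes may be set side by side. A trend with transcript length that differed between libraries remained and is described below. Values of each gene are given in the order of passages 8, 9 and 10 for MOE LOW and of passages 90, 103 and 113 for MOE HIGH. Summed FPKM ran from 624733 to 683841 in MOE LOW and from 597161 to 770438 in MOE HIGH, and the number of reads behind them is unknown, so no counting interval can be given. Of the 11621 genes whose mean over the libraries reached 0.5 FPKM, 56.4% were called at an adjusted p of 0.05 by limma (24.3% higher and 32.1% lower in MOE HIGH), and the groups did not overlap in 64.0%. Of the epithelial markers, Krt18 and Msln were higher in MOE HIGH, Pax8, Krt8 and Ovgp1 were not called, and the adhesion genes Epcam and Cdh1 were at or near 0 FPKM in all 6 libraries. The summed level of 6 smooth muscle markers was 8221 to 11936 FPKM in MOE LOW and 9.69 to 18.6 FPKM in MOE HIGH, with 5 of the 6 called lower, and that of 8 fibroblast markers was 592 to 982 FPKM and 22.4 to 32.7 FPKM, with 5 of the 8 called lower. Of 6 leukocyte markers, Emr1, Itgam and Cd3e were listed at 0 in every library, Cd14 was called lower (61.2, 75.7 and 98.9 FPKM against 32.8, 39.1 and 25.4 FPKM) and Cd68 was not called. Of 5 endothelial markers, Cdh5 and Vwf were listed at 0 in every library, and Kdr was called lower, from 3.64, 2.63 and 1.87 FPKM to 0.00998 FPKM or less. The part of these muscle, stromal, leukocyte and endothelial transcripts in the results below was not tested, and in bulk RNA fewer cells of a type and less RNA per cell cannot be told apart.

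Initiation is the step at which a ribosome is placed on an mRNA. The ternary complex of eIF2, GTP and the initiator tRNA binds the small ribosomal subunit together with eIF1, eIF1A, eIF5 and the large scaffold eIF3. The eIF4 group recognizes the cap, unwinds the leader and brings the subunit to the mRNA, and start codon recognition then releases eIF2 with GDP, which eIF2B recharges. Cells hold this pathway back by phosphorylating eIF2α or by binding eIF4E with 4E-BP proteins, and the balance of eIF4E and its inhibitors is widely studied in carcinomas.

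Of the 54 initiation factor genes, 51 passed the filter on low values, and 17 of these were higher in MOE HIGH (33.3%, beside 24.3% of all tested genes) while 7 were lower (13.7%, beside 32.1% of all tested genes). In total 24 of the 51 were called (47.1%), a smaller share than the 56.4% of all tested genes, and no test was made of either difference. The groups did not overlap in 24 of the 51 tested members, beside 64.0% of all tested genes. The median log2 fold change of the members was 0.17, against −0.05 over all tested genes. Their summed level was 6628, 6838 and 6196 FPKM in MOE LOW, against 8430, 7603 and 6981 FPKM in MOE HIGH, which made up 0.969%, 1.01% and 0.992% of the FPKM of each MOE LOW library, and 1.09%, 1.06% and 1.17% of that of each MOE HIGH library. The initiation factors therefore took a larger share of the summed FPKM in each MOE HIGH library than in any MOE LOW library. The sums of passages 8 and 10 count Eif3l at 0, which can be a failed estimate, as described below.

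**Figure D1:**
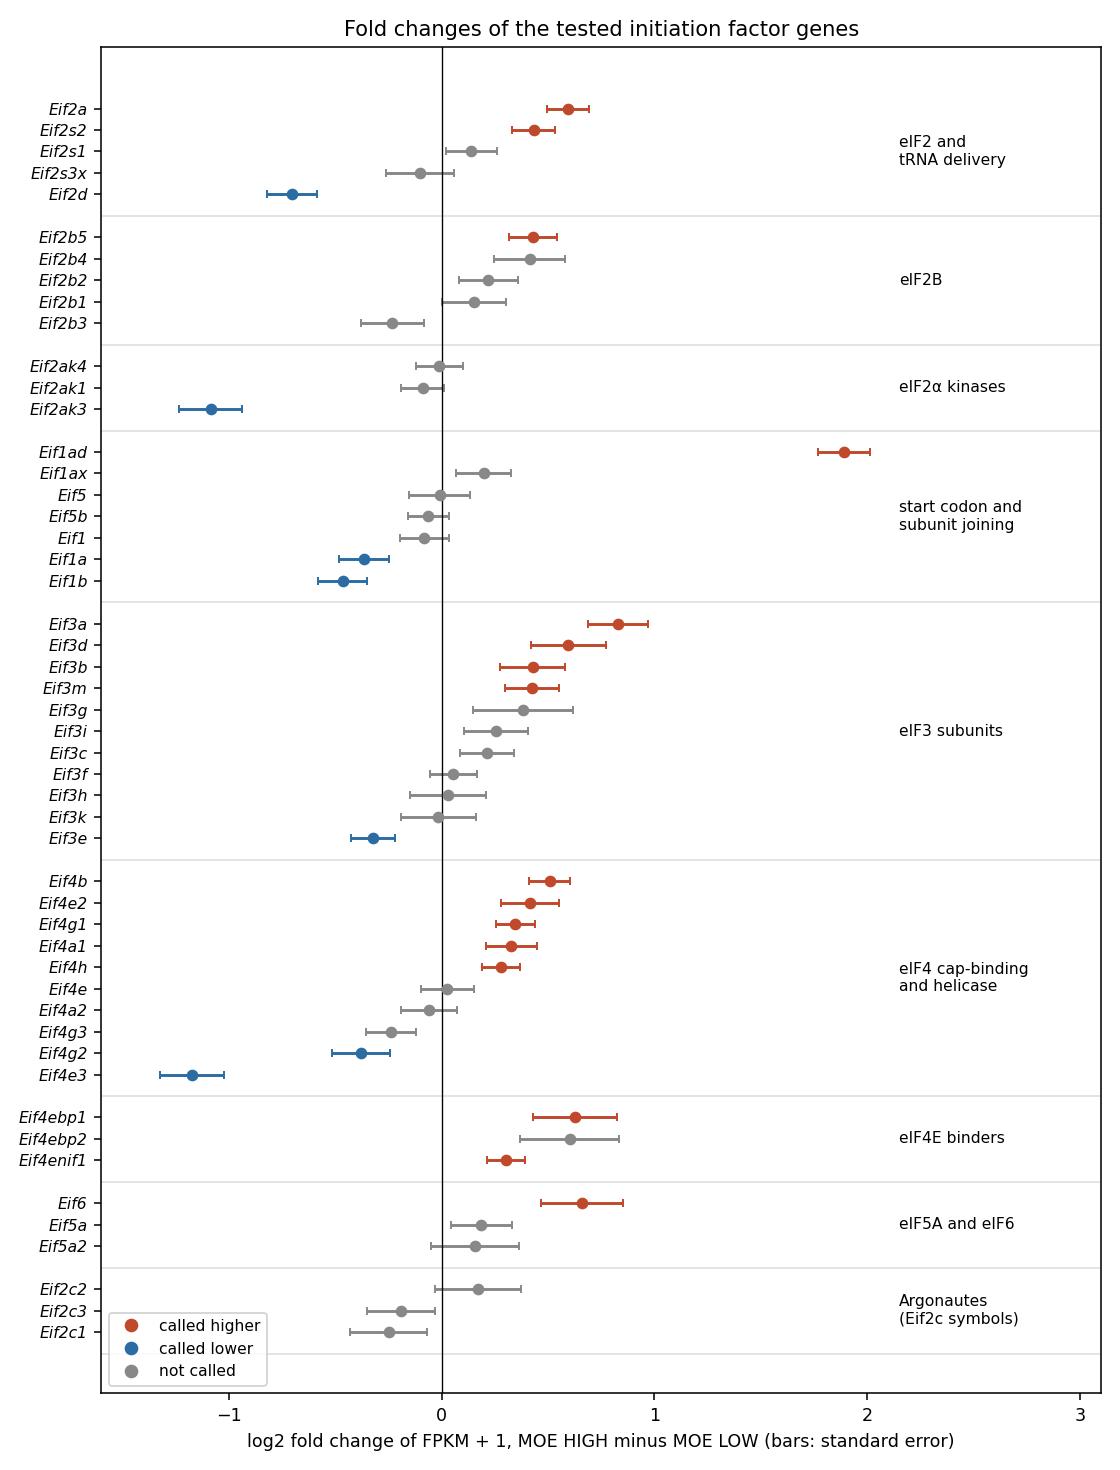
Log2 fold change of FPKM + 1 (x axis, MOE HIGH minus MOE LOW) for the tested initiation factor genes (y axis, grouped by role), with bars of 1 standard error from the limma fit; Eif3l, listed at 0 in a pair of MOE LOW libraries, is not drawn. Eif1ad, at 1.89, lies farthest to the right, and Eif4e3 at −1.17 and Eif2ak3 at −1.09 lie farthest to the left.

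The 3 members that were not tested lay near 0. Eif2s3y, the Y-linked copy of the eIF2γ gene, was listed at 0 in all 6 libraries of this line from female mice. Eif4e1b, an oocyte form of the cap-binding protein, was listed at 0 in every library but that of passage 10, at 0.0334 FPKM. Eif2c4 was at 0.174, 0.117 and 0.213 FPKM in MOE LOW and was listed at 0 in all 3 MOE HIGH libraries.

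Calls that did not depend on the settings tried were fewer than 24. Under 17 alternatives of filter, pseudocount, scaling, threshold, blocking and left-out library, 8 members kept their call wherever they were tested: Eif1ad, Eif3a, Eif2a, Eif4b and Eif2s2 were higher in MOE HIGH, and Eif2d, Eif2ak3 and Eif4e3 were lower. An adjusted p of 0.01 was 1 of these 17 alternatives and by itself left these same 8 members, so the match is no separate support. That threshold was passed by 41.5% of all tested genes. No member was called in opposite directions by any pair of these fits, although the sign of members called in 1 alternative alone, such as Eif2c2 and Eif2c3, varied between fits.

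**Figure D2:**
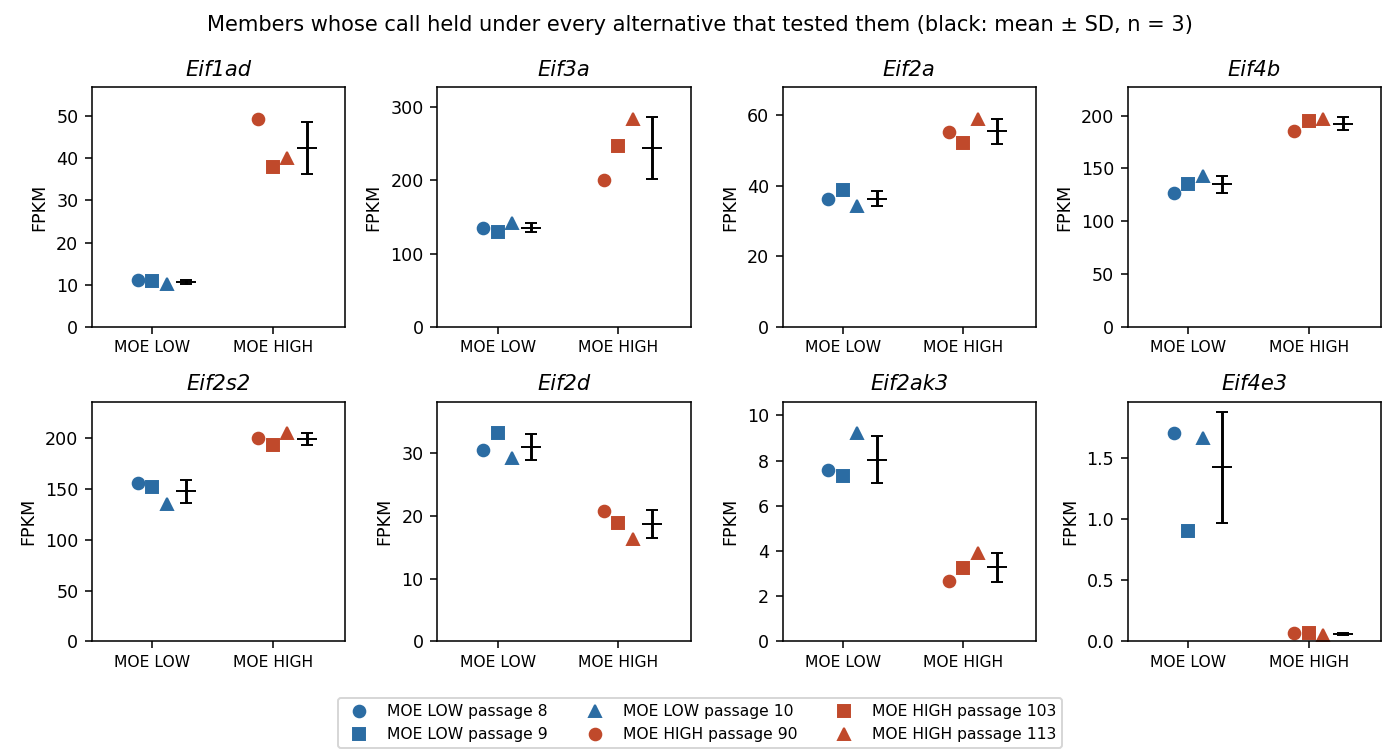
FPKM (y axis, from 0) of the 8 initiation factor genes that kept their call under the 17 alternatives wherever they were tested, with 1 point for each library, MOE LOW in blue and MOE HIGH in red, and the mean ± SD of each group (n = 3) in black. In each panel the points of the groups are apart, from Eif1ad at 10.1 to 11.1 and 37.9 to 49.5 FPKM to Eif4e3 at 0.903 to 1.71 and 0.0519 to 0.0683 FPKM.

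Promoter windows were read for the members to see what their start sites share. RefSeq windows (GRCm38.p6) from 250 bases before to 50 bases after a transcript start were at hand for 43 of the 54 members. The E-box CACGTG, which reads the same on both strands and is bound by Myc and Max among other factors, was in a window of 10 of these 43 members (23.3%), against 8.91% of 17492 protein-coding genes with a window. By call, 4 of the 15 higher members with a window, 1 of the 3 lower members and 5 of the 23 members that were not called held it. The CCAAT box, the site of NF-Y, was searched as CCAAT or ATTGG and was in 16 of the 43 members (37.2%), against 42.3% of protein-coding genes. A gene was counted when at least 1 of its windows held the letters, the E-box and the CCAAT box cannot overlap each other, and a match describes the sequence alone.

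Windows of 4 genes are shown as examples of sequence. They are those of the 2 members that rose most among those kept by every alternative and of the kinase gene that fell. The last is the window of the cap-binding protein gene Eif4e that was picked because it held 2 E-boxes. Each runs 5′ to 3′ on the strand of the gene from 250 bases before the start to 30 bases after it, with the letters of the E-box and of the CCAAT box on either strand in capitals. They lie on GRCm38.p6 at chr19:5366563-5366842 (plus strand, Eif1ad), chr19:60790664-60790943 (minus strand, Eif3a), chr6:70844265-70844544 (plus strand, Eif2ak3) and chr3:138527018-138527297 (plus strand, Eif4e, 1 of its 2 windows).
Eif1ad: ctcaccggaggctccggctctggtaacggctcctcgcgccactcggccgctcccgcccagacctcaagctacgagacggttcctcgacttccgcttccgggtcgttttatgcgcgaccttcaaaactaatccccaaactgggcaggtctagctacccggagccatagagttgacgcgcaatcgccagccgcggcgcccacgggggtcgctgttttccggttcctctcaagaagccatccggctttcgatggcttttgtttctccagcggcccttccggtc
Eif3a: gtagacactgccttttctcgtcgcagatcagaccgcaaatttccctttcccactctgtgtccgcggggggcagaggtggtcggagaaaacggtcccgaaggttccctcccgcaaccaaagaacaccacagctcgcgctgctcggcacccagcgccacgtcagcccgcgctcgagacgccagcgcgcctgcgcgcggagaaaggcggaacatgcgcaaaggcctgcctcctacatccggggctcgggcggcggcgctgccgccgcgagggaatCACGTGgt
Eif2ak3: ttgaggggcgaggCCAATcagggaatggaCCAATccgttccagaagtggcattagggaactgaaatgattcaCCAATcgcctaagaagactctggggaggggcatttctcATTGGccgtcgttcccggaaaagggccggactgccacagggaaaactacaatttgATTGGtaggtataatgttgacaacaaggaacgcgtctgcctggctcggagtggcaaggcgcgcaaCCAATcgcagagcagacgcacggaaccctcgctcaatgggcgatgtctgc
Eif4e: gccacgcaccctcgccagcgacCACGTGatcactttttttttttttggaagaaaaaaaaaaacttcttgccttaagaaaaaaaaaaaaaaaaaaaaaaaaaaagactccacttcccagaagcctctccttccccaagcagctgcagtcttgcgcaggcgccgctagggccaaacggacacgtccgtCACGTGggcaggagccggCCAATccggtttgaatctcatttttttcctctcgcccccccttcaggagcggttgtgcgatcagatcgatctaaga
The Eif1ad stretch held neither motif. Eif3a had a CACGTG 22 bases past the start, and the printed Eif4e window had them at 228 and 64 bases before it, with a CCAAT at 46 bases before it. The other Eif4e window, which covers the annotated start of that gene, held neither motif. Eif4g1, called higher, and Eif5a2, not called, also had a window with 2 E-boxes. Eif2ak3 had 6 CCAAT boxes in either orientation, between 237 and 20 bases before the start.

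The eIF2 complex was measured through its α, β and γ subunits, Eif2s1, Eif2s2 and Eif2s3x, and through Eif2a and Eif2d, separate factors that can deliver the initiator tRNA by other routes. Of these genes, Eif2s2 and Eif2a were higher in MOE HIGH and Eif2d was lower. Eif2s2 was at 156, 152 and 135 FPKM in MOE LOW, against 199.9, 193 and 205 FPKM in MOE HIGH. The MOE HIGH libraries were all above the MOE LOW libraries, and the log2 fold change was 0.43 (SE 0.10, adjusted p = 0.0076 by limma). The other subunits did not follow: Eif2s1 had a log2 fold change of 0.14 (95% interval −0.14 to 0.42, adjusted p = 0.36 by limma), and Eif2s3x one of −0.10 (−0.47 to 0.27, adjusted p = 0.61).

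Eif2a encodes eIF2A, a protein unrelated in sequence to eIF2α. It was at 36.2, 38.7 and 34.3 FPKM in MOE LOW, against 55.2, 52.0 and 59.1 FPKM in MOE HIGH, a rise of 1.52-fold in the mean with no overlap between groups. The log2 fold change was 0.59 (SE 0.10, adjusted p = 0.0014 by limma). The 5′ end of the gene overlaps Serp1 on the opposite strand, which was lower in MOE HIGH (166 ± 7.06 against 89.2 ± 22.8 FPKM, SD, n = 3 each).

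Eif2d encodes a factor (ligatin) that also helps to recycle ribosomes. Its levels were 30.5, 33.2 and 29.1 FPKM in MOE LOW, against 20.8, 18.9 and 16.3 FPKM in MOE HIGH, so that every MOE HIGH library was below every MOE LOW library, by 1.66-fold in the mean. The log2 fold change was −0.71 (SE 0.12, adjusted p = 0.0014 by limma). Its relatives by domain, Mcts1 and Denr, which act as a pair on the same step, were at −0.80 (SE 0.12, adjusted p = 0.00087 by limma) and −0.16 (SE 0.11, adjusted p = 0.25). Eif2d overlaps Rassf5, which also fell, from 5.14 ± 0.300 to 1.98 ± 0.588 FPKM (SD, n = 3 each).

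eIF2B, the exchange factor that reloads eIF2 with GTP, has 5 subunits, of which only the catalytic ε subunit was called. That gene, Eif2b5, was at 57.2, 61.0 and 58.2 FPKM in MOE LOW, against 89.2, 80.9 and 69.7 FPKM in MOE HIGH. The groups did not overlap, and the log2 fold change was 0.43 (SE 0.11, adjusted p = 0.013 by limma), with an adjusted p of 0.054 when the library of passage 8 was left out. Eif2b4, the δ subunit gene, was at 15.6, 16.2 and 15.8 FPKM and at 26.2, 23.2 and 16.2 FPKM. Passage 113 lay at the level of MOE LOW for Eif2b4, which was not called with that library (log2 fold change 0.41, SE 0.17, adjusted p = 0.067 by limma) and was called without it (0.61, adjusted p = 0.0010). With passage 113 kept, Eif2b4 was also called under median ratio scaling, quantile normalization, the replicate block and length correction (adjusted p from 0.021 to 0.048 by limma). The genes of the α, β and γ subunits had log2 fold changes of 0.15 (Eif2b1), 0.22 (Eif2b2) and −0.23 (Eif2b3), with adjusted p from 0.21 to 0.42 by limma. Without passage 113 Eif2b2 was called higher (0.34, adjusted p = 0.027), and without passage 90 Eif2b3 was called lower (−0.37, adjusted p = 0.042).

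The kinases that phosphorylate eIF2α and so restrain the ternary complex were represented by Eif2ak1 (HRI, heme and mitochondrial stress), Eif2ak3 (PERK, stress of the endoplasmic reticulum) and Eif2ak4 (GCN2, amino acid shortage). PERK alone was called. Eif2ak3 (chr6:70844484-70905241) was at 7.59, 7.33 and 9.22 FPKM in MOE LOW, against 2.66, 3.24 and 3.93 FPKM in MOE HIGH. All MOE HIGH libraries were below all MOE LOW libraries, with a mean 2.45-fold lower and a log2 fold change of −1.09 (SE 0.15, adjusted p = 0.00048 by limma). For Eif2ak1, at 18.4 ± 1.44 against 17.2 ± 0.513 FPKM (SD, n = 3 each), the log2 fold change was −0.09 (95% interval −0.32 to 0.14, adjusted p = 0.47 by limma). Eif2ak4 gave 6.96, 7.48 and 6.89 FPKM against 7.33, 7.61 and 6.26 FPKM, and its log2 fold change was −0.01 (−0.27 to 0.25, adjusted p = 0.94). Their groups overlapped, and the intervals of both lay within 0.32 of 0 on the log2 scale. The difference between the kinases was not tested.

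Of the integrated stress response, to which these kinases belong, 14 other genes were tested. Of these, 4 were lower (28.6%, beside 32.1% of all tested genes), none was higher (beside 24.3%) and 10 were not called by limma. Nupr1, a stress-induced chromatin protein, was at 259, 161 and 154 FPKM in MOE LOW, against 6.71, 10.2 and 12.1 FPKM in MOE HIGH (log2 fold change −4.17, SE 0.25, adjusted p = 6.4e-06 by limma). The groups were far apart for Nupr1, and also for Vldlr, a lipoprotein receptor (−2.37, SE 0.20, adjusted p = 3.5e-05), and for Atf5, a transcription factor of the response (−0.95, SE 0.14, adjusted p = 0.00063). Nck1, an adaptor that restrains PERK signaling, was the other lower gene (−0.31, SE 0.10, adjusted p = 0.024). Atf4, whose translation rises when eIF2α is phosphorylated, was at 223, 185 and 160 FPKM against 248, 256 and 208 FPKM and was not called (0.33, SE 0.15, adjusted p = 0.093). Among the 10 genes not called were also Ddit3 at −0.88 (SE 0.48), Chac1 at 0.87 (SE 0.52) and Trib3 at 0.61 (SE 0.35), with adjusted p from 0.16 to 0.19 by limma. Passage 8 was the highest of the MOE LOW libraries for all 3 of these genes, for example Chac1 at 31.8 FPKM against 9.05 and 5.98 FPKM at passages 9 and 10. With passage 8 left out, 3 of the 14 genes of the list were called higher, beside 19.2% of all tested genes in that fit. Ddit3 was not among them.

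Start codon selection and subunit joining were covered by 7 genes. Of these, 1 was higher (14.3%, beside 24.3% of all tested genes) and 2 were lower (28.6%, beside 32.1%). Eif1ad rose more than any other tested member apart from Eif3l, whose zeros are described below. It encodes a nuclear protein with an eIF1A-like domain that acts in maturation of the small ribosomal subunit rather than in scanning. Eif1ad (chr19:5366813-5371518) was at 11.1, 10.8 and 10.1 FPKM in MOE LOW, against 49.5, 37.9 and 40.1 FPKM in MOE HIGH. The lowest MOE HIGH library was more than 3-fold above every MOE LOW library, and the means differed by 3.98-fold (log2 fold change 1.89, SE 0.12, adjusted p = 9.6e-06 by limma).

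The start of Eif1ad lies inside Banf1, a gene for a chromatin-binding protein of the nuclear envelope that is read in the opposite direction. Banf1 was at 186, 207 and 175 FPKM in MOE LOW, against 631, 545 and 436 FPKM in MOE HIGH, so both genes of this divergent pair were higher in every MOE HIGH library. The libraries kept strand, but whether the quantification used it is not given in the sources used here. The neighborhood was also high: of the 20 tested genes nearest to Eif1ad, 12 were higher and 2 lower, with a median log2 fold change of 0.79. Over the whole of chromosome 19 the median was 0.70 and 66.1% of 413 tested genes were higher, against 24.3% of all tested genes. Eif3a, the other member on chromosome 19, also rose, and of its 16 tested neighbors 8 were higher and 5 lower, with a median of 0.30. Chromosome 8, which holds Eif4ebp1, had a median of 0.29 with 44.9% of its tested genes higher. Chromosome 2 had a median of 0.22 with 39.8% higher, and it holds Eif2s2, Eif3m and Eif6, which were called higher. It also holds Eif2ak4, which was not called (log2 fold change −0.01). Copy number was not measured, and its part in the levels of the members on these chromosomes was not tested.

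The scanning factor eIF1 is made from Eif1 and Eif1b. Eif1b was at 36.5, 36.0 and 35.2 FPKM in MOE LOW, against 29.9, 24.8 and 23.0 FPKM in MOE HIGH, with no overlap and a log2 fold change of −0.47 (SE 0.12, adjusted p = 0.010 by limma). Eif1, the far more abundant form, was at 319, 293 and 292 FPKM against 312, 287 and 256 FPKM. Its groups overlapped, with a log2 fold change of −0.08 (95% interval −0.35 to 0.18, adjusted p = 0.57).

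eIF1A likewise has an autosomal gene, Eif1a, and an X-linked gene, Eif1ax. Eif1a fell from 95.8, 90.3 and 79.8 FPKM in MOE LOW to 67.6, 62.6 and 75.6 FPKM in MOE HIGH, with passage 113 just below passage 10. Its log2 fold change was −0.37 (SE 0.12, adjusted p = 0.028 by limma), and the call was lost when the library of passage 8, 9, 90 or 103 was left out, with adjusted p from 0.059 to 0.11. Eif1ax gave 274, 292 and 257 FPKM against 343, 335 and 269.5 FPKM and overlapped between groups (0.20, SE 0.13, adjusted p = 0.22), but it was called higher without passage 113 (0.31, adjusted p = 0.018). Eif5, the GTPase activator of eIF2, and Eif5b, the subunit joining GTPase, had log2 fold changes of −0.01 (−0.34 to 0.32) and −0.06 (−0.28 to 0.16), with adjusted p of 0.97 and 0.60 by limma.

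The 12 genes of eIF3 in the set, the large scaffold on the small subunit, were among the most abundant members and did not move as a block. No gene of the j subunit was among them. Of the 12, 5 were called higher (41.7%, beside 24.3% of all tested genes) and 1 was called lower (8.3%, beside 32.1%). Among the 5 is Eif3l, whose call rests on the zeros described below. The other 6 were not called, and the median log2 fold change of the 12 was 0.32. Eif3a encodes the largest subunit, a backbone of the complex. Eif3a (chr19:60761116-60790693) was at 135, 130.0 and 142 FPKM in MOE LOW, against 201, 248 and 285 FPKM in MOE HIGH. Every MOE HIGH library was above MOE LOW, the means differed by 1.80-fold, and the log2 fold change was 0.83 (SE 0.14, adjusted p = 0.0015 by limma).

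Eif3d, whose product can bind the cap itself, was at 123, 118 and 107 FPKM in MOE LOW, against 217, 186 and 134 FPKM in MOE HIGH (log2 fold change 0.60, SE 0.18, adjusted p = 0.021 by limma). The core scaffold gene Eif3b gave 178, 172 and 159 FPKM against 272, 236 and 184 FPKM (0.43, SE 0.15, adjusted p = 0.042). Eif3m, a subunit of the outer shell, gave 170.3, 198 and 169 FPKM against 256, 258 and 209 FPKM (0.42, SE 0.13, adjusted p = 0.021). In all 3 genes passage 113 was the lowest MOE HIGH library and still lay above MOE LOW. These calls were fragile: that of Eif3d was lost without passage 9, 10, 90 or 103 (adjusted p from 0.051 to 0.074), that of Eif3b without passage 8, 9, 10, 90 or 103 (0.086 to 0.13), and that of Eif3m without passage 8, 10, 90 or 103 (0.056 to 0.084).

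Eif3e, the Int6 gene, was the subunit gene that fell. It was at 391, 379 and 356 FPKM in MOE LOW, against 314, 284 and 301 FPKM in MOE HIGH, with no overlap, and the log2 fold change was −0.32 (SE 0.10, adjusted p = 0.028 by limma). The call was lost without passage 8, 9, 10 or 103 (adjusted p from 0.057 to 0.11) and under median ratio scaling (−0.26, adjusted p = 0.070) and quantile normalization (−0.25, adjusted p = 0.054).

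Eif3l was listed at 0 at passages 8 and 10, at 137 FPKM at passage 9, and at 183, 159 and 143 FPKM in MOE HIGH. It encodes a subunit of the outer shell, and the other 11 eIF3 genes stood above 100 FPKM in every library. Across the series, 43 genes had such a 0 although a second library of that group reached 5 FPKM. A 0 in these tables can be a failed estimate, so the called log2 fold change of 4.97 (SE 1.71, adjusted p = 0.038 by limma) rests on those values. With the zeros treated as missing, a choice made after the data were seen, the log2 fold change was 0.23 (adjusted p = 0.34). The call was also lost without passage 8, 10, 90, 103 or 113, with adjusted p from 0.068 to 0.13.

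**Figure D3:**
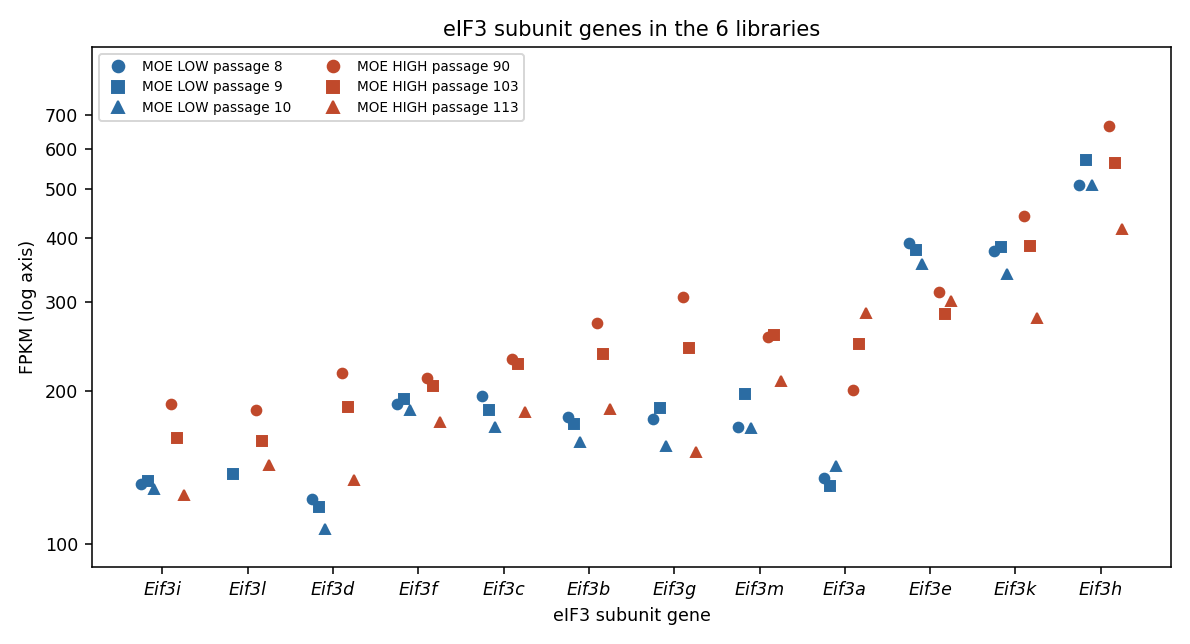
FPKM (y axis, log scale) of the 12 eIF3 subunit genes (x axis, ordered by mean level), with 1 point for each library, MOE LOW in blue and MOE HIGH in red; values of 0 (Eif3l at passages 8 and 10) cannot be drawn. Passage 113 (red triangles) is the lowest MOE HIGH library in 10 of the 12 genes, the exceptions being Eif3a, where it is highest at 285 FPKM, and Eif3e.

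Passage 113 was the lowest MOE HIGH library in all 6 subunit genes that were not called, and in 5 of them, all but Eif3c, it lay below every MOE LOW library. Eif3g was at 176, 185 and 156 FPKM in MOE LOW, against 306, 244 and 152 FPKM in MOE HIGH, so passages 90 and 103 lay above every MOE LOW library and passage 113 below them all (log2 fold change 0.38, SE 0.24, adjusted p = 0.20 by limma). Without passage 113 Eif3g was called higher (0.66, adjusted p = 0.0035), as were Eif3i (0.41, adjusted p = 0.0061) and Eif3c (0.32, adjusted p = 0.015). Eif3f, Eif3h and Eif3k, with log2 fold changes of 0.05, 0.03 and −0.02 and adjusted p from 0.70 to 0.95, were not called with or without that library.

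This place of passage 113 was seen across the set. It was the lowest MOE HIGH library in 26 of the 51 tested members (51.0%, beside 37.9% of all tested genes) and the highest in 19 (37.3%, beside 42.1%). In eIF3 it was lowest in 10 of 12 genes and highest in 1. The difference of passage 113 from the mean of passages 90 and 103 moved with transcript length, with a Spearman rho of 0.69 over 50 members without Eif3l and 0.51 over 11101 tested genes with a known length. The trend was not particular to that library: passage 90 against the mean of passages 103 and 113 had a rho of −0.75 over the members and −0.47 over the tested genes, and passage 10 against the mean of passages 8 and 9 had 0.47 and 0.37. For passage 113, members with transcripts under 2000 bases (n = 14) had a median difference of −0.42 and members of at least 4000 bases (n = 16) one of 0.34 on the log2 scale. The genes are not independent replicates, they share 6 libraries, and the part of transcript length or RNA quality in the calls was not tested. The difference between MOE HIGH and MOE LOW followed length less closely, with rho of −0.20 over the members and −0.08 over the tested genes. After a correction for length, added after the data were seen, 20 members were higher and 6 lower, beside 62.0% of the tested genes called in either direction, and 23 of the 24 calls were shared.

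**Figure D4:**
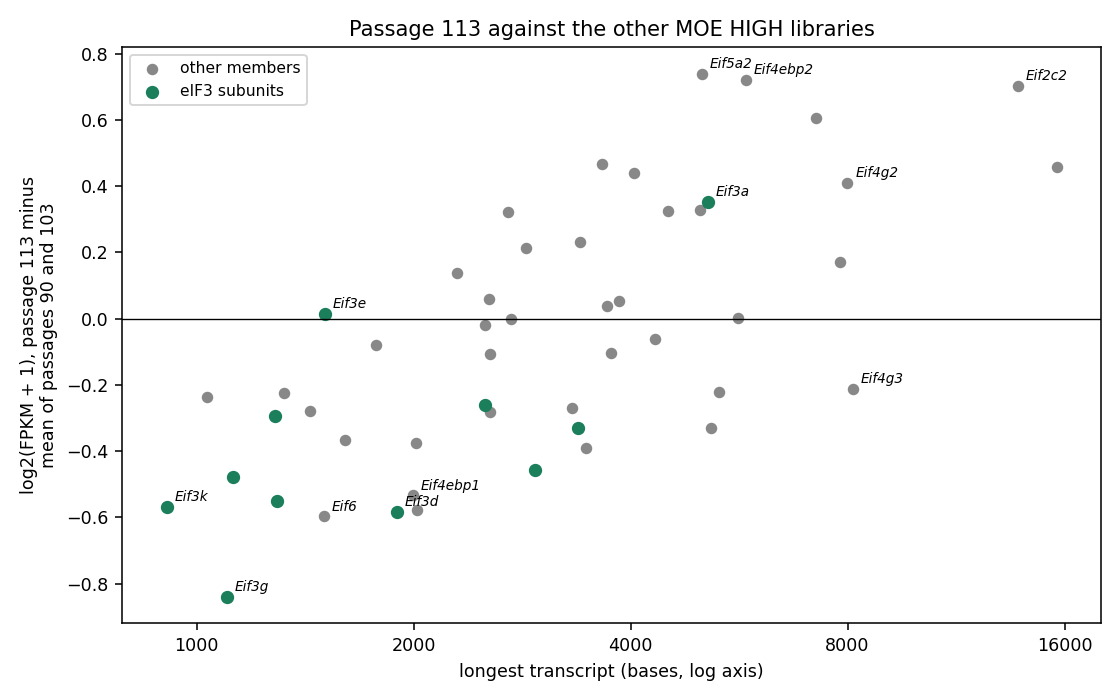
Length of the longest protein-coding transcript (x axis, bases, log scale) against the log2 difference of FPKM + 1 between passage 113 and the mean of passages 90 and 103 (y axis) for 50 tested members without Eif3l, eIF3 subunits in green. Short transcripts such as Eif3g, Eif3k and Eif6 lie below 0 and long ones such as Eif3a, Eif4ebp2 and Eif2c2 above it (Spearman rho 0.69).

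The eIF4 group holds the cap-binding proteins, the RNA helicases with their helpers, and the scaffolds that join them. Of 11 genes 10 were tested, 5 were higher (50%, beside 24.3% of all tested genes) and 2 lower (20%, beside 32.1%). The summed level was 1565, 1610 and 1541 FPKM in MOE LOW, against 1924, 1777 and 1852 FPKM in MOE HIGH. Each MOE HIGH sum lay above each MOE LOW sum. The cap-binding protein itself did not follow: Eif4e was at 59.6, 62.9 and 57.6 FPKM in MOE LOW, against 60.5, 52.9 and 71.2 FPKM in MOE HIGH. Its groups overlapped, and the log2 fold change of 0.03 had a 95% interval from −0.26 to 0.31 (adjusted p = 0.87 by limma), so the data set a limit on a change in either direction but do not show equality. The E-boxes printed above for Eif4e are thus in a gene that was not called.

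Eif4e2 encodes a homolog (4EHP) that binds caps without recruiting the scaffold and is known as a repressor. It was at 119, 116 and 109 FPKM in MOE LOW, against 177, 158 and 127 FPKM in MOE HIGH, above MOE LOW in every library (log2 fold change 0.42, SE 0.13, adjusted p = 0.030 by limma). The call was lost without passage 8, 9, 10, 90 or 103 (adjusted p from 0.069 to 0.10). Around Eif4e2 on chromosome 1, 14 of the 20 nearest tested genes were higher, with a median of 0.60, although the chromosome had a median of −0.20.

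Eif4e3, another cap-binding homolog, was expressed at a low level and fell further. It measured 1.71, 0.903 and 1.67 FPKM in MOE LOW, against 0.0658, 0.0683 and 0.0519 FPKM in MOE HIGH, 1.43 ± 0.454 against 0.0620 ± 0.00887 FPKM (SD, n = 3 each). On the scale of log2(FPKM + 1), which understates the change of so low a gene, the difference was −1.17 (SE 0.15, adjusted p = 0.00038 by limma). The values of MOE HIGH are close to the limit of the table and a ratio of the means cannot be read as exact.

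Among the helicase genes, Eif4a1, the main eIF4A, was at 601, 657 and 579 FPKM in MOE LOW, against 835, 732 and 740.0 FPKM in MOE HIGH. The groups did not overlap, but the call was close to the threshold (log2 fold change 0.33, SE 0.12, adjusted p = 0.046 by limma) and was lost without passage 8, 9, 10, 90 or 103 (adjusted p from 0.080 to 0.16), at equal summed FPKM (0.26, adjusted p = 0.054) and with no filter on low values (adjusted p = 0.053). Eif4a2, the second form, was at 113, 113 and 114 FPKM against 111, 91.5 and 127 FPKM, with passages 90 and 113 on either side of MOE LOW (−0.06, 95% interval −0.36 to 0.24, adjusted p = 0.72).

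The helicase cofactors rose with little spread between passages. Eif4b, which stimulates eIF4A and is a substrate of S6 kinase, was at 127, 136 and 143 FPKM in MOE LOW, against 186, 195 and 197 FPKM in MOE HIGH (log2 fold change 0.51, SE 0.10, adjusted p = 0.0028 by limma). Eif4h, a smaller relative of eIF4B, gave 130.2, 134 and 129 FPKM against 161, 158 and 159 FPKM (0.28, SE 0.09, adjusted p = 0.028). Both were apart in all libraries, although the Eif4h call was lost without passage 8, 9, 10, 90 or 103 (adjusted p from 0.056 to 0.098) and when libraries were set to equal summed FPKM (0.22, adjusted p = 0.15). Pdcd4, which binds eIF4A and blocks it, was lower in MOE HIGH (13.0, 11.0 and 14.9 FPKM against 4.06, 9.83 and 7.45 FPKM, log2 fold change −0.84, SE 0.26, adjusted p = 0.027 by limma).

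The scaffold genes went separate ways. Eif4g1, which bridges the cap, the helicase and eIF3, was at 177, 178 and 176 FPKM in MOE LOW, against 229, 222 and 226 FPKM in MOE HIGH. This was among the tightest sets of values, 177 ± 1.18 against 226 ± 3.46 FPKM (SD, n = 3 each), with a log2 fold change of 0.35 (SE 0.09, adjusted p = 0.012 by limma). The call was lost without passage 8, 9 or 10 (adjusted p from 0.051 to 0.052) and at equal summed FPKM (0.28, adjusted p = 0.065). Eif4g2 (DAP5), which lacks the eIF4E-binding part, was at 194, 176 and 190.5 FPKM against 132, 128 and 173 FPKM. Passage 113 was just below passage 9, and the call for Eif4g2 (−0.38, SE 0.14, adjusted p = 0.045 by limma) was lost under 11 of the 17 alternatives, among them those without passage 8, 9, 10, 90 or 103 (adjusted p from 0.080 to 0.15). Eif4g3 was at 42.2, 37.5 and 41.5 FPKM against 32.7, 39.3 and 30.8 FPKM with overlap (−0.24, SE 0.12, adjusted p = 0.13) and was called lower without passage 103 (−0.34, adjusted p = 0.047).

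The 3 genes of eIF4E-binding proteins, which hold eIF4E away from the scaffold until mTORC1 phosphorylates them or, for the transporter 4E-T (Eif4enif1), carry it to the nucleus and to P-bodies, had positive fold changes. Eif4ebp1 (4E-BP1) was at 186, 149 and 126 FPKM in MOE LOW, against 282, 251 and 184 FPKM in MOE HIGH, 154 ± 30.4 against 239 ± 50.3 FPKM (SD, n = 3 each). Passage 113 lay just under passage 8, so Eif4ebp1 was the only called member whose groups overlapped (log2 fold change 0.63, SE 0.20, adjusted p = 0.027 by limma). Its call was lost without passage 9, 10, 90 or 103 (adjusted p from 0.077 to 0.099).

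Eif4ebp2 (4E-BP2) was at 16.9, 19.7 and 24.4 FPKM against 23.0, 29.7 and 43.7 FPKM, with passage 90 below passage 10. It was not called (0.60, SE 0.23, adjusted p = 0.057 by limma), except without passage 90 (0.81, adjusted p = 0.014) and under 4 other alternatives. Eif4enif1 was at 24.4, 23.4 and 25.4 FPKM against 29.7, 30.4 and 30.9 FPKM, with the groups apart (0.30, SE 0.09, adjusted p = 0.021). Its call was lost without passage 8, 9, 10 or 103 (adjusted p from 0.051 to 0.094) and when libraries were set to equal summed FPKM (0.24, adjusted p = 0.19).

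eIF6 keeps the large ribosomal subunit from joining too early, and eIF5A, now known mainly for elongation, carries the amino acid hypusine. Eif6 was at 73.5, 74.9 and 58.1 FPKM in MOE LOW, against 135, 115 and 82.2 FPKM in MOE HIGH, above MOE LOW in all 3 libraries (log2 fold change 0.66, SE 0.19, adjusted p = 0.020 by limma). The Eif6 call was lost without passage 10, 90 or 103 (adjusted p from 0.052 to 0.074). Eif5a, with Eif4a1 among the most abundant members, was at 688, 690.5 and 619 FPKM against 899, 725 and 665 FPKM and overlapped between groups (0.19, SE 0.14, adjusted p = 0.30). Eif5a2, the second gene, was at 6.36, 6.84 and 6.68 FPKM against 6.70, 5.67 and 11.0 FPKM (0.16, SE 0.21, adjusted p = 0.54).

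The enzymes that make hypusine and its spermidine precursor were also measured, and 2 of these 4 genes were higher while none was lower by limma, beside 24.3% and 32.1% of all tested genes. Odc1, the first enzyme of polyamine synthesis, was at 204, 193 and 172 FPKM in MOE LOW, against 541, 444 and 444 FPKM in MOE HIGH (log2 fold change 1.32, SE 0.13, adjusted p = 7.7e-05 by limma). Dhps, which starts the modification of eIF5A, was at 27.9, 30.2 and 24.3 FPKM against 69.5, 56.6 and 40.3 FPKM (0.96, SE 0.19, adjusted p = 0.0036). The groups were apart for both. Srm, at 0.56 (adjusted p = 0.066), and Dohh, at 0.28 (adjusted p = 0.34), were not called. Without passage 113 all 4 genes were called higher, beside 28.5% of all tested genes in that fit.

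Eif2c1, Eif2c2 and Eif2c3 are older symbols of the Argonautes Ago1, Ago2 and Ago3, which carry small RNAs and are initiation factors in name only. None was called, with log2 fold changes of −0.25 (SE 0.18), 0.17 (SE 0.20) and −0.19 (SE 0.16) and adjusted p of 0.27, 0.50 and 0.33 by limma. Their levels ran from 0.827 FPKM for Eif2c3 to 12.3 FPKM for Eif2c2, both in MOE HIGH. For each of the 3 genes passage 113 was the highest of the MOE HIGH libraries, and without it Eif2c1 (−0.45, adjusted p = 0.0085) and Eif2c3 (−0.34, adjusted p = 0.0498) were called lower.

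Ratios of related genes were compared within each library, where the scale of the library cancels. The trend with transcript length does not cancel where the lengths of a pair differ. Examples are Eif5a (1437 bases) with Eif5a2 (5027 bases) and Eif4ebp1 (1997 bases) with Eif4ebp2 (5784 bases). The part of length in the ratios was not tested. Eif4a1 exceeded Eif4a2 by 5.30, 5.81 and 5.09 times in MOE LOW and by 7.50, 8.00 and 5.84 times in MOE HIGH, and Eif4g1 exceeded Eif4g3 by 4.20, 4.76 and 4.24 times and by 7.01, 5.65 and 7.32 times. Eif1 exceeded Eif1b by 8.73, 8.14 and 8.29 times in MOE LOW and by 10.4, 11.6 and 11.1 times in MOE HIGH. In these 3 pairs every MOE HIGH ratio was above every MOE LOW ratio, so the more abundant form gained on the other. The mean log2 ratios differed by 0.39, 0.59 and 0.40, each with a two-sided exact permutation p of 0.1 (0.2 adjusted over 8 pairs), the smallest that 3 libraries against 3 allow.

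Eif1a was at 0.350, 0.309 and 0.311 of the level of Eif1ax in MOE LOW and at 0.197, 0.187 and 0.280 of it in MOE HIGH, a difference of −0.57 on the log2 scale with no overlap (exact permutation p = 0.1, 0.2 adjusted). Eif4ebp1 exceeded Eif4e by 3.13, 2.37 and 2.19 times in MOE LOW and by 4.65, 4.75 and 2.58 times in MOE HIGH. For this pair of inhibitor and target, passage 113 fell among the MOE LOW values, and the log2 difference was 0.60 (exact permutation p = 0.2, 0.32 adjusted). The ratio of Eif4e to Eif4e2 went from 0.526 ± 0.0215 to 0.412 ± 0.128 (SD, n = 3 each) with overlap (exact permutation p = 0.4, 0.53 adjusted). Eif4ebp1 to Eif4ebp2 and Eif5a to Eif5a2 had log2 differences of 0.00 and 0.01 (exact permutation p = 1 for both), with passage 113 the lowest of all 6 libraries in each pair.

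**Figure D5:**
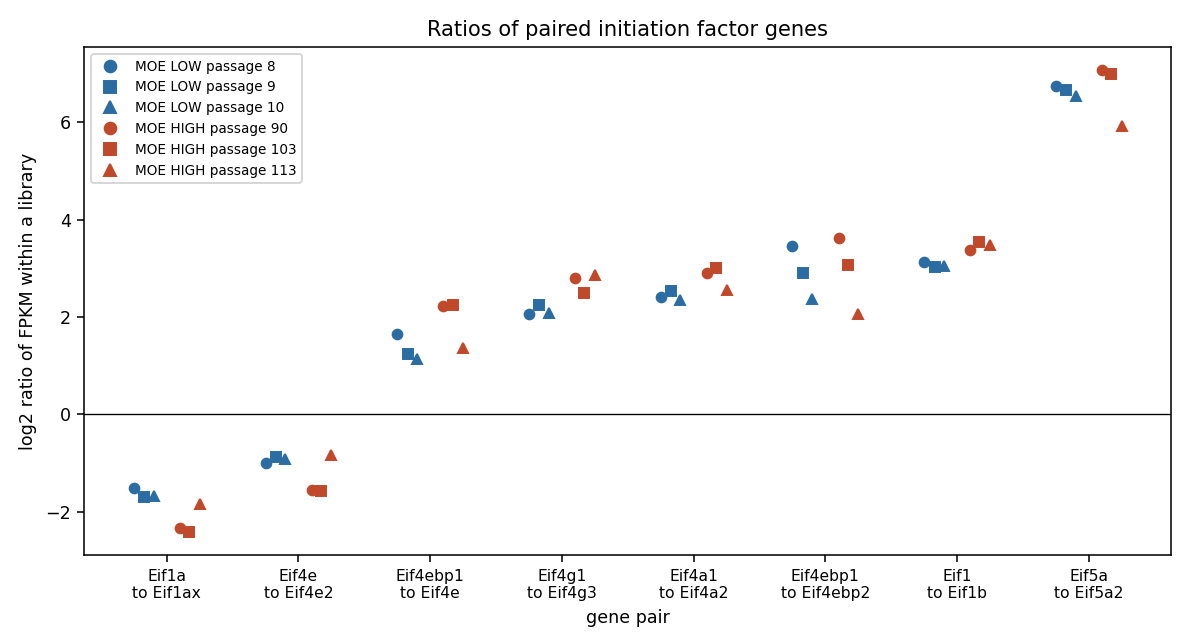
Log2 ratio of FPKM within a library (y axis) for the 8 gene pairs (x axis), with 1 point for each library, MOE LOW in blue and MOE HIGH in red. The groups are apart for Eif1a to Eif1ax, Eif4g1 to Eif4g3, Eif4a1 to Eif4a2 and Eif1 to Eif1b, and passage 113 (red triangle) falls among or beyond the MOE LOW values in the other 4 pairs.

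Other genes of translation and its control were taken from lists of 60 genes, of which 58 were tested, 14 were higher (24.1%, beside 24.3% of all tested genes) and 13 were lower (22.4%, beside 32.1%), with a median log2 fold change of 0.04. Of 14 elongation and termination factors, 13 were tested, 6 were higher (46.2%) and 2 lower (15.4%). Eef1g, a subunit of the exchange factor for eEF1A, was at 999.7, 1023 and 929.8 FPKM in MOE LOW, against 2472, 2142 and 1847 FPKM in MOE HIGH (log2 fold change 1.12, SE 0.15, adjusted p = 0.00043 by limma). Its partners Eef1d (0.62, SE 0.13, adjusted p = 0.0047) and Eef1b2 (0.43, SE 0.11, adjusted p = 0.014) and the recycling factor Abce1 (0.60, SE 0.12, adjusted p = 0.0039) also rose. Pelo, a ribosome rescue factor, fell (−0.50, SE 0.12, adjusted p = 0.0074), and Gspt2, a release factor gene at 3.06, 2.90 and 3.59 FPKM in MOE LOW, was listed at 0 in all 3 MOE HIGH libraries. Eef1a1 and Eef2, which carry tRNA and move the ribosome, were not called (adjusted p of 0.26 and 0.14).

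The 12 cofactors of scanning, recycling and the poly(A) tail split evenly, with 4 higher and 4 lower (33.3% each, beside 24.3% and 32.1% of all tested genes). Poly(A)-binding proteins, which bind eIF4G, rose: Pabpc4 had a log2 fold change of 0.80 (SE 0.11, adjusted p = 0.00053 by limma) and Pabpc1 one of 0.43 (SE 0.12, adjusted p = 0.015). Abcf1, which binds eIF2 (0.61, SE 0.13, adjusted p = 0.0051), and Larp1, a binder of terminal oligopyrimidine mRNAs (0.37, SE 0.10, adjusted p = 0.012), were higher as well. Besides Pdcd4 and Mcts1, the poly(A)-binding protein partners Paip2, an inhibitor (−0.52, SE 0.12, adjusted p = 0.0082), and Paip1, an activator (−0.41, SE 0.15, adjusted p = 0.043), fell.

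Of 16 genes of mTORC1, S6 kinase and MNK signaling, 15 were tested. Of these, 2 were higher (13.3%, beside 24.3% of all tested genes) and 3 lower (20%, beside 32.1%) by limma. Rps6kb2, the second S6 kinase gene, was at 12.1, 11.8 and 11.2 FPKM in MOE LOW, against 18.0, 20.2 and 19.3 FPKM in MOE HIGH (log2 fold change 0.67, SE 0.10, adjusted p = 0.00074 by limma). Ddit4, a stress-induced inhibitor of mTORC1 (−0.86, SE 0.18, adjusted p = 0.0048), Rheb, its activator (−0.49, SE 0.11, adjusted p = 0.0074), and Tsc2, the inhibitor of Rheb (−0.41, SE 0.10, adjusted p = 0.0086), fell. Tsc1, the partner of Tsc2, was the other higher gene, from 3.51 to 5.76 FPKM in the mean (0.58, SE 0.14, adjusted p = 0.0076). Activators and inhibitors were thus on both sides. Mtor, Rptor and Mlst8, the core of the complex, were not called, with log2 fold changes of −0.05, 0.11 and 0.11 and adjusted p from 0.39 to 0.73.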

How the data were processed

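RNA from 6 MOE libraries (MOE LOW, 3 passages; MOE HIGH, 3 passages) was ribosome-depleted, made into strand-specific libraries and sequenced. Alignment by the authors used TopHat2 2.0.8b on mm10, and Cufflinks and Cuffdiff 2.1.1 estimated levels of UCSC gene annotations. The deposited values are FPKM for each gene and library. FPKM are not counts, hold no depth, and a deposited 0 can be a failed estimate. The heading over the value column named another library in all 6 tables, so each table was assigned by its sample record. Of 23141 entries, 236 symbols were repeated and stood for their highest entry, and no member was repeated.

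Genes averaging at least 0.5 FPKM were compared as log2(FPKM + 1) with limma 3.58.1 (variance trend, R 4.3.3) and Benjamini-Hochberg adjustment over 11621 genes at 0.05, without a block. Fold changes are on that scale. Ratios within libraries were compared by exact two-sided permutation (scipy 1.17.1), and the fit was tested on simulated data. Values were given for every library for members called with at least 5 FPKM and an absolute log2 fold change of at least 0.5, for the paired genes and for members with zeros, and further members were added after their values were seen. From the other lists up to 4 genes in each direction with at least 5 FPKM were named, and others named were chosen after their values were seen.

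The members and lists were chosen with earlier results of these data known. Promoter windows and gene positions were from RefSeq (GRCm38.p6), and transcript lengths from GENCODE on the same assembly. In RefSeq 10 members overlap another protein-coding gene, 6 of them called. Reads shared with processed pseudogenes or close paralogs could not be told apart. Alternatives covered pseudocounts of 0.1 and 0.01, filters, scaling, an adjusted p of 0.01, a replicate block and each library left out (15), with a length correction and zeros left out added after the data were seen.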

Additional observations from a re-analysis of the deposited data

How the results depend on the processing

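Beside 17 members higher and 7 lower (24.3% and 32.1% of all tested genes), no filter on low values gave 9 and 6 (10.9% and 17.5%), an adjusted p of 0.01 gave 5 and 3 (16.6% and 24.9%), equal summed FPKM 13 and 6 (19.4% and 30.5%), median ratio scaling 19 and 4 (27.2% and 29.6%), and quantile normalization 23 and 5 (34.6% and 26.4%). No filter lost Eif1a, Eif3b, Eif3d, Eif3l, Eif3m, Eif4a1, Eif4e2, Eif4ebp1, Eif4g2 and Eif6 (adjusted p from 0.053 to 0.19 by limma), and equal summed FPKM lost Eif4a1, Eif4enif1, Eif4g1, Eif4g2 and Eif4h. Pseudocounts of 0.1 and 0.01 kept the same 24 members. The median log2 fold change of all tested genes was −0.05 as deposited and 0.10 after quantile normalization, so members called only there are higher relative to a shifted centre. Leaving out 1 library at a time, which leaves a group with 2 libraries, gave 6 to 22 members higher and 4 to 9 lower. In those fits 19.2% to 28.5% of all tested genes were higher and 26.4% to 37.5% were lower. The highest counts, 22 and 9, came without passage 113, where 66.0% of all tested genes were called. Of the listed pathway genes, 14 were higher and 13 lower. An adjusted p of 0.01 gave 9 higher, and leaving out 1 library gave 9 to 19 higher and 10 to 15 lower. The shares of all tested genes in these fits are those given above. The log2 difference of Eif4ebp1 to Eif4ebp2 changed sign, from −0.34 to 0.43 with 1 library left out (−0.27 without passage 10, −0.34 without passage 90, −0.07 without passage 103), as did Eif5a to Eif5a2, from −0.19 to 0.38 (−0.04, −0.19 and −0.15). The cause was not tested. With a replicate block, 18 members were higher and 7 lower (25.5% and 33.0% of all tested genes), 23 of them shared with the 24. Eif4a1 was lost, and Eif2b4 (adjusted p = 0.042 by limma) and Eif4ebp2 (0.0032) were gained. The replicate numbers follow the order of passages within each group. Deviations of same-numbered libraries correlated at −0.02, −0.15 and 0.12, and those of differently numbered libraries ran from −0.19 to 0.22. Correlations of values centred within so few libraries cannot decide whether the samples are paired. The depth behind the FPKM is unknown, so values near 0 (Eif4e3, Eif2c4) carry no counting error.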
